A study of Mus musculus with 8 samples.

Results

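Transcripts of the enzymes that make and use glutathione, and of the thioredoxin, peroxiredoxin and superoxide dismutase systems, were compared between wild-type and Dicer-deficient mouse oocytes. The genes were chosen by name: a gene was included if its platform symbol began with Gst and a letter, with Gpx, Prdx or Sod and a number, or with Txn or Glrx, or was Gclc, Gclm, Gss, Gsr or Cat. The rule gave 62 of the 18193 genes that the array names with a single symbol. Because it works by name, it also takes in proteins that share a thioredoxin fold but do other work, such as the splicing proteins Txnl4a and Txnl4b.

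Glutathione is a tripeptide that holds reducing power in the cell. Glutamate-cysteine ligase and glutathione synthetase make it, peroxidases and transferases spend it on peroxides and reactive compounds, and glutathione reductase regenerates it with NADPH. Thioredoxin works beside it, passing electrons from NADPH through thioredoxin reductase to the peroxiredoxins. Growing oocytes store glutathione, which after fertilisation helps to unpack the disulfide-linked protamines of the sperm nucleus.

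The oocytes were fully grown and still had an intact germinal vesicle. They came from 129/C57BL6 females that had received equine chorionic gonadotropin (eCG), which makes follicles grow, and the cumulus cells around them had been removed by pipetting. The 2 groups were 4 wild-type mice and 4 Dicer knockout mice, with RNA of 20 oocytes per mouse on 1 Affymetrix mouse genome array. The sources used here give neither the age of the mice nor the way in which Dicer was deleted. All values below are log2 signals, differences are knockout minus wild type, and "rose" and "fell" are used for knockout against wild type at a limma adjusted p under 0.05.

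The labels could not be checked on Dicer1 itself, whose deleted part is not stated. The signal of the probe set that represents it was higher on the knockout arrays (14.26 to 14.36 against 13.04 to 13.31, or 2.28-fold, adjusted p = 2.12e-05), as was that of its other probe set. The mean log2 signal over 14 oocyte markers was 13.02 to 13.16 on the wild-type and 12.97 to 13.01 on the knockout arrays. Of these markers 6 fell (42.9%) and 1 rose (7.14%), where 12.8% of all genes fell and 8.18% rose. Of 17 cumulus and granulosa cell markers, 8 fell (47.1%) and 0 rose. Their mean log2 signal was 7.75 to 8.08 on the wild-type and 7.25 to 7.68 on the knockout arrays. Inha, Inhbb, Fshr, Cyp11a1, Npr2, Fst, Nr5a2 and Hsd17b1 fell. Another Cyp11a1 probe set rose, and Nr5a2 passed only in the probe set that represents it. Amh, Foxl2, Kitl, Inhba and Star did not pass. Ptgs2, Has2, Tnfaip6 and Ptx3, genes of the expanding cumulus, did not pass either. RMA signals have no true zero, so the absence of a marker could not be read from them. Of 12 markers of vessel, blood, theca and stroma cells, 1 rose (8.33%) and 2 fell (16.7%). In such pooled RNA, fewer cells of a type and less RNA per cell cannot be told apart.

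Most of the redox transcripts did not pass the test. Of the 62 genes, 4 rose (6.45%), 5 fell (8.06%) and 53 did not pass, where 8.18% of all 18193 genes rose and 12.8% fell. Both shares among the redox genes were below those among all genes. The counts over all genes moved with the scaling of the arrays, from 1488 higher and 2330 lower genes as deposited to 1745 and 1864 with cyclic loess scaling and 1285 and 2530 with median centring. The redox genes then numbered 5 higher and 4 lower with cyclic loess and 4 and 5 with median centring. The median difference over the 62 genes was -0.072 (log2), beside 0.0027 over all genes. The 4 knockout values lay above all 4 wild-type values in 5 of the 62 genes, where this held for 10.7% of all genes, and below them in 7, where it held for 15.5% of all genes. Gsta2, Gstp1, Gpx1 and Gstt4 rose, and Txnl4a, Txndc2, Prdx3, Gstm5 and Txnl4b fell. In Gsta2, Gstp1 and Gpx1 the highest of the wild-type values came from array 1. Without that array, 4 redox genes passed as higher and 5 as lower. Leaving out each of the 8 arrays in turn gave 4 to 5 higher and 4 to 7 lower genes. Gsta2 and Gstp1 are measured by probe sets that the array maker marks as matching several transcripts, and without such probe sets 2 of 52 genes rose.

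**Figure D1:**
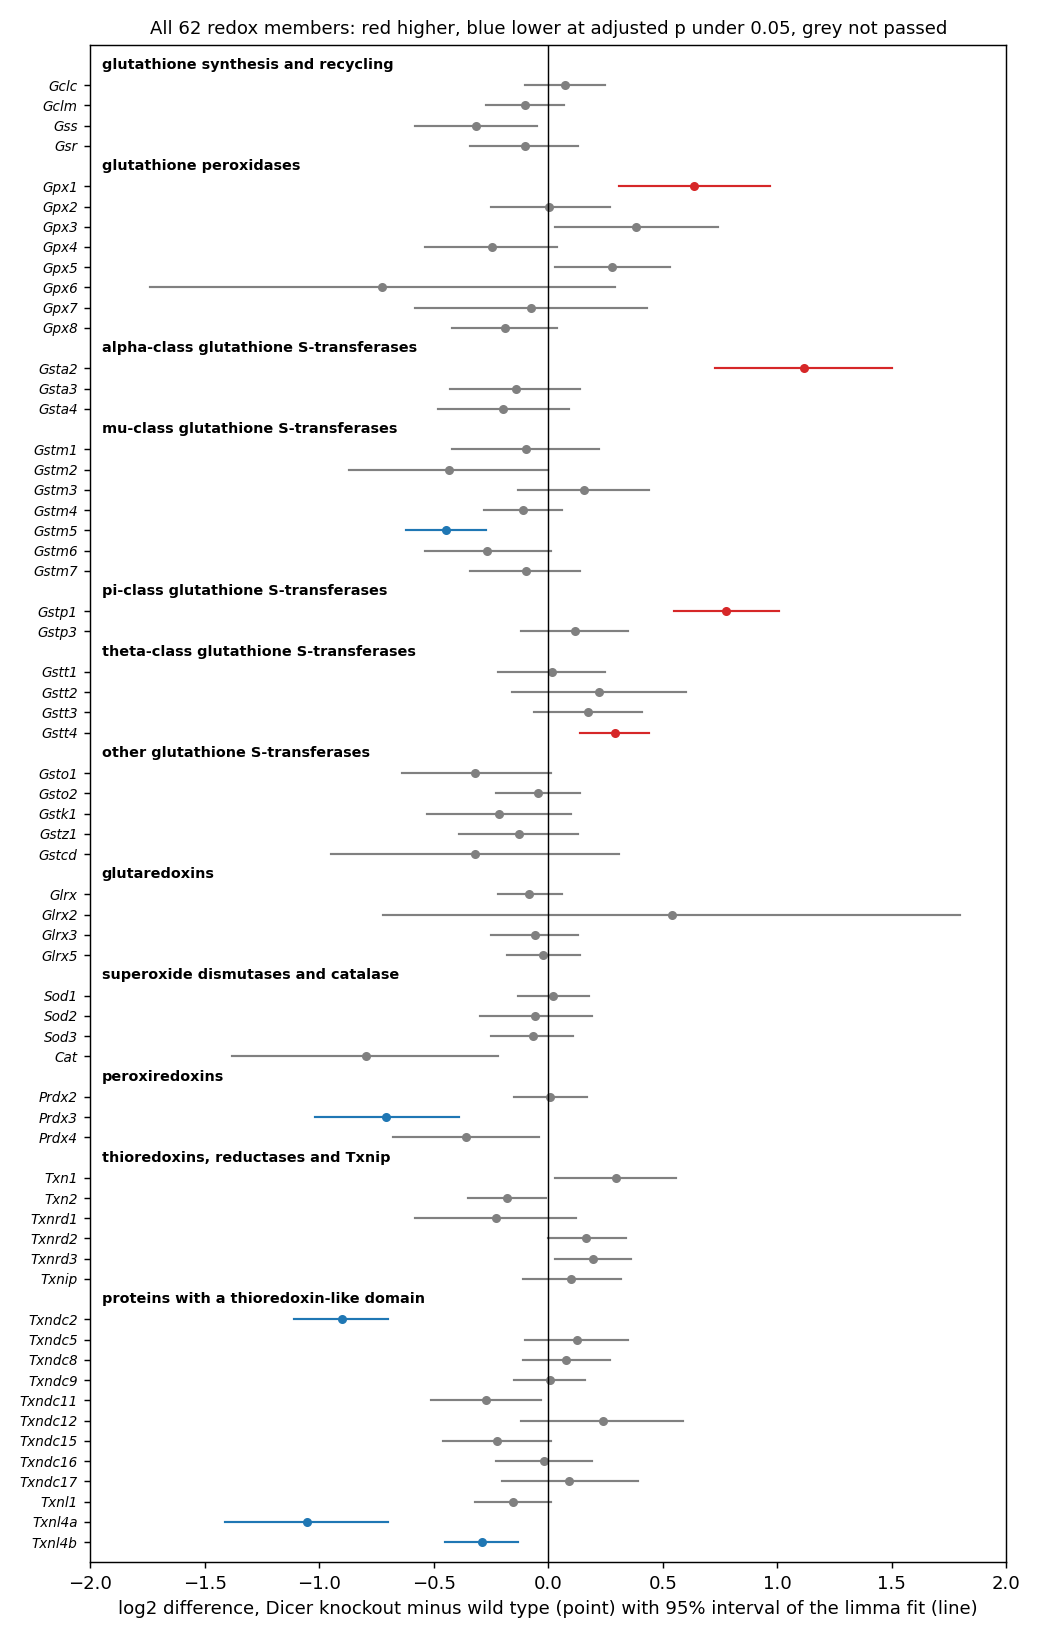
Log2 difference (knockout minus wild type, point) with its 95% interval from the limma fit (line) for all 62 redox genes, ordered by role, 4 arrays per group. The 4 red genes rose and the 5 blue genes fell. Glrx2 and Gpx6 have the widest intervals.

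**Figure D2:**
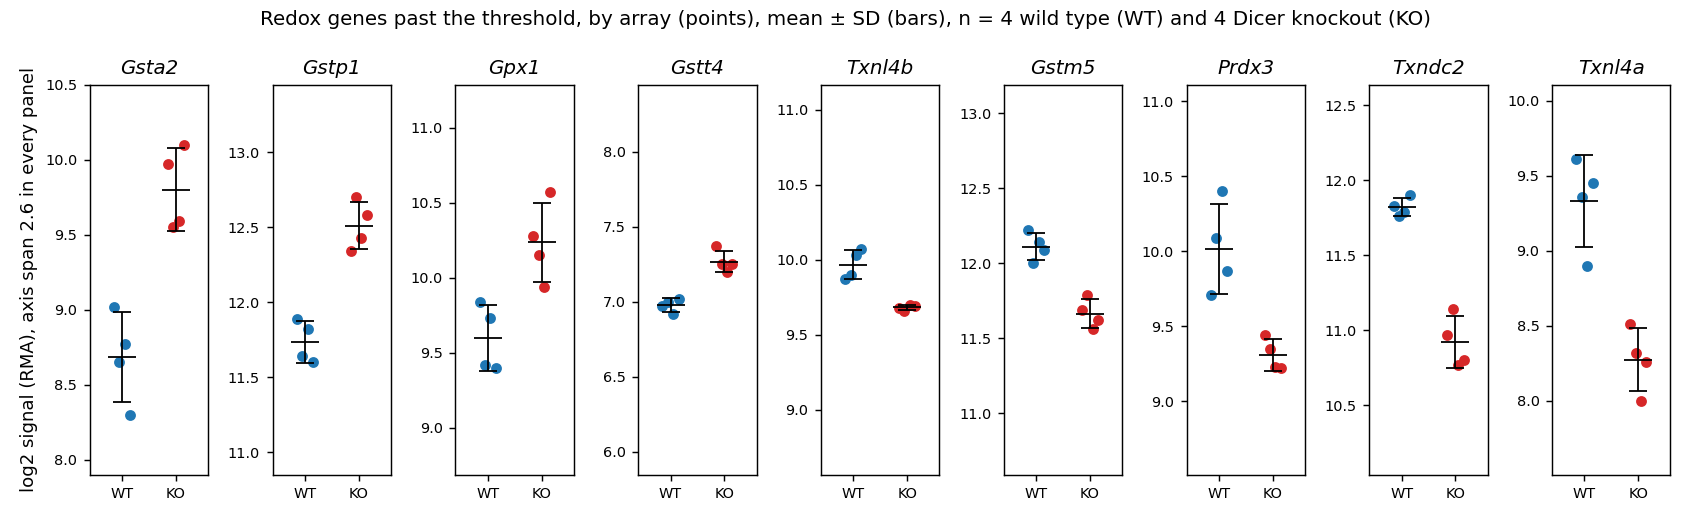
Log2 RMA signal on each array (points) with mean ± SD (bars) for the 9 redox genes past the threshold, 4 wild-type (WT, blue) and 4 Dicer knockout (KO, red) arrays each. In all 9 panels the groups do not overlap, and the largest difference is that of Gsta2, from 8.68 to 9.80.

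Glutathione S-transferases, which attach glutathione to reactive compounds, made up 21 of the 62 genes and gave 3 of the 4 rises. Of these 21 genes, 3 rose, 1 fell and 17 did not pass, where 8.18% of all genes rose and 12.8% fell. Their median difference was -0.0985, and no test compared these counts with those over all genes. Gsta2, an alpha-class transferase on chromosome 9 (probe set 1421040_a_at), read 9.02, 8.65, 8.77 and 8.30 on the wild-type arrays and 9.97, 9.55, 9.59 and 10.10 on the knockout arrays. Every knockout array was above every wild-type array. The means were 8.68 ± 0.3 and 9.80 ± 0.277 (SD, n = 4 and 4), a difference of 1.12 ± 0.172 (SE), or 2.17-fold (adjusted p = 0.00208). A second probe set, which matches Gsta1, Gsta2 and the predicted gene Gm3776 together, was 1.80-fold higher (adjusted p = 0.0219). The alpha genes are close copies, so the signal cannot be given to Gsta2 alone. Gsta4, which acts on products of lipid peroxidation, read 12.23 ± 0.207 and 12.03 ± 0.191 (adjusted p = 0.358).

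Gstp1, the pi-class transferase (chromosome 19, probe set 1449575_a_at), read 11.89, 11.64, 11.82 and 11.60 in wild-type oocytes and 12.34, 12.70, 12.43 and 12.58 in knockout. All knockout arrays were higher than all wild-type arrays. The difference was 0.78 ± 0.103 (SE, n = 4 and 4), or 1.71-fold (adjusted p = 0.000898). Gstp1 has a near-identical neighbour in the mouse, and this is its only probe set. Its relative Gstp3 read 6.08 ± 0.143 and 6.20 ± 0.168 and did not pass (adjusted p = 0.527).

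Gstt4, a theta-class gene on chromosome 10 (probe set 1428815_at), read 6.92 to 7.02 in wild-type oocytes and 7.20 to 7.37 in knockout. The change was small, 0.29 ± 0.067 (SE, n = 4 and 4) or 1.22-fold (adjusted p = 0.0159), on a signal below the median of all genes (7.56). Gstt1, Gstt2 and Gstt3 lie on the same chromosome and did not pass, with differences of 0.017, 0.22 and 0.17.

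The mu class held the transferase that fell. Gstm5 (chromosome 3, probe set 1416842_at) read 12.22, 12.00, 12.14 and 12.09 in wild-type oocytes and 11.69, 11.79, 11.56 and 11.62 in knockout. All knockout arrays were lower. The difference was -0.45 ± 0.0795 (SE, n = 4 and 4), or 1.36-fold lower (adjusted p = 0.00451). The other 6 mu genes, Gstm1 to Gstm4, Gstm6 and Gstm7, are on chromosome 3 as well and did not pass, with differences from -0.43 (Gstm2) to 0.15 (Gstm3). Probe sets of this family can share sequence. The omega, kappa and zeta genes and Gstcd (5 genes) had differences from -0.32 to -0.047, and 0 of them passed.

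Promoter sequences are shown for Gstp1 and Gsta2, the transferases with the largest rises, and for Gstm5 and Txndc2, which fell, because the transcription factor Nrf2 is known to drive many of these genes through the antioxidant response element. Each window runs from 250 bases before to 50 after the annotated start and is written 5′ to 3′ in the gene's direction, from RefSeq on build GRCm38.p6. Capitals mark the core of the element, searched as TGACNNNGC on either strand. The Gstp1 window is chr19:4037863-4038162 (minus strand), that of Gsta2 chr9:78347096-78347395 (minus), that of Gstm5 chr3:107895604-107895903 (plus) and that of Txndc2 chr17:65639707-65640006 (minus), the one of its 2 windows that holds the core.
Gstp1: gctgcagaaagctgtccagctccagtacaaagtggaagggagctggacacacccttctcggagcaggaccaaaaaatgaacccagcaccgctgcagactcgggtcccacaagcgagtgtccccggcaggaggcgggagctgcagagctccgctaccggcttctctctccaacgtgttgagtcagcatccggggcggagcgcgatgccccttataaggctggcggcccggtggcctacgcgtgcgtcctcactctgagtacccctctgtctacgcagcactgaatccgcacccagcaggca
Gsta2: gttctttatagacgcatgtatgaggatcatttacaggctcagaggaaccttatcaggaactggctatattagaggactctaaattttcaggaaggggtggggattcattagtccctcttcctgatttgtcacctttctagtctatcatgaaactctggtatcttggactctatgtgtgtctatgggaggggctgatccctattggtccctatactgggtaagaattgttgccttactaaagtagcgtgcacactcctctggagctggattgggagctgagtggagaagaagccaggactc
Gstm5: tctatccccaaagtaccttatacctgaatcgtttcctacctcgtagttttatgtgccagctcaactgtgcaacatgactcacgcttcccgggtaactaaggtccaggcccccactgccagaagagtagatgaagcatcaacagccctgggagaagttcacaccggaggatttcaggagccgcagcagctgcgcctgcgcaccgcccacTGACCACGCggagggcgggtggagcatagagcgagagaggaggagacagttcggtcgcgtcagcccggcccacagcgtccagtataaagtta
Txndc2: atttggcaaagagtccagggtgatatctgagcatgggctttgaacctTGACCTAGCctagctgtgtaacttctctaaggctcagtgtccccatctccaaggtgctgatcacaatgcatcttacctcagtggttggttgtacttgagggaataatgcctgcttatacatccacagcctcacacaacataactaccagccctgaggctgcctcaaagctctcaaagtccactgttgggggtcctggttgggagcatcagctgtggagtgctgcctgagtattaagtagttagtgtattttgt

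The core began at position -42 from the start in Gstm5 and at -203 in Txndc2, on the strand shown. Both were chosen for display with this match known. The windows of the other called genes that have one, Prdx3 and Txnl4b among the falls and all 4 genes that rose, did not hold it. The Gstp1 window does hold tgagtcagc, which has a g where the search asked for a C. Such near matches were not searched for or counted. Over all members, RefSeq windows were matched for 55 of 62 genes (not for Gclc, Gsr, Gsta4, Gstt2, Sod3, Txnl1 and Txnl4a), of which 9 (16.4%) held at least 1 core in at least 1 window. Over all 27025 genes with a window the share was 14.0%, and 12.4% of all 32851 windows held one. Of the 9 members that held it, 2 were called, Gstm5 and Txndc2. The other 7, which were not called, were Gclm, Gsta3, Gstm7, Sod1, Txndc11, Txndc5 and Txnrd1. A match of 9 letters describes the window and is not a site shown to be bound, and a window without one says nothing of the factor.

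Glutathione synthesis and recycling showed no call among 4 genes. Gclc, the catalytic subunit of glutamate-cysteine ligase and the rate-limiting step, read 9.44, 9.62, 9.67 and 9.61 in wild-type oocytes and 9.56, 9.73, 9.65 and 9.70 in knockout. The groups overlapped, and the difference of 0.074 had a 95% interval from -0.10 to 0.25. Gclm, the modifier subunit, differed by -0.10 (interval -0.27 to 0.07), and Gsr, glutathione reductase, by -0.10 (interval -0.34 to 0.13). Gss, glutathione synthetase, read 8.02 ± 0.172 and 7.71 ± 0.2 (SD, n = 4 and 4), a difference of -0.31 with an adjusted p of 0.114. It passed without knockout array 3 (adjusted p = 0.0445). Its other probe set differed by -0.22 (adjusted p = 0.0956).

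Among 8 glutathione peroxidases, which reduce hydrogen peroxide and lipid peroxides, Gpx1 rose and 7 did not pass. Gpx1, the selenium enzyme of cytosol and mitochondria (chromosome 9, probe set 1460671_at), read 9.84, 9.42, 9.73 and 9.40 in wild-type oocytes and 10.28, 10.15, 9.94 and 10.57 in knockout. The groups did not overlap, with wild-type array 1 and knockout array 3 closest to each other. The difference was 0.64 ± 0.148 (SE, n = 4 and 4), or 1.56-fold (adjusted p = 0.0167). Gpx4, which reduces lipid hydroperoxides in membranes, read 11.33, 10.88, 11.52 and 11.43 in wild-type oocytes and 11.10, 11.06, 11.06 and 10.96 in knockout. Wild-type array 2 lay below every knockout array, and the difference of -0.25 did not pass (adjusted p = 0.246). Without that array it was -0.38 and passed (adjusted p = 0.0167). On all 8 arrays the second Gpx4 probe set differed by -0.43 (adjusted p = 0.0657). Gpx3, the secreted form, differed by 0.38 (adjusted p = 0.143). Gpx6 spread from 8.16 to 10.32 over the wild-type arrays alone, so that its interval ran from -1.74 to 0.29.

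Superoxide dismutases turn superoxide into hydrogen peroxide, and catalase breaks the peroxide down. By the probe sets that represent the genes, 0 of these 4 passed. Sod1, the copper-zinc enzyme, read 13.77, 13.80, 13.73 and 13.66 in wild-type oocytes and 13.82, 13.68, 13.73 and 13.80 in knockout. The difference of 0.021 had an interval from -0.13 to 0.18. Sod2, the manganese enzyme of mitochondria, read 11.68 ± 0.18 and 11.62 ± 0.144 (SD, n = 4 and 4), with an interval from -0.30 to 0.19, and Sod3, the extracellular enzyme, differed by -0.068.

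Other probe sets of these genes gave different values. Another Sod2 probe set (1454976_at) read 6.14, 5.77, 5.38 and 5.31 in wild-type oocytes and 7.35, 6.26, 6.69 and 6.90 in knockout. It was 2.23-fold higher in knockout (log2 1.15 ± 0.242, SE, adjusted p = 0.0105), while the other 3 Sod2 probe sets had differences between -0.18 and -0.059. Another Sod1 probe set (1435304_at) read 7.34 ± 0.118 in wild-type and 7.70 ± 0.161 in knockout oocytes (SD, n = 4 and 4), which is 1.28-fold higher (adjusted p = 0.0348). Which transcripts these probe sets measure was not tested.

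Catalase signals lay lower in knockout. The Cat probe set that represents the gene read 6.81, 6.62, 6.13 and 6.19 in wild-type oocytes and 5.58, 5.16, 5.41 and 6.41 in knockout. Knockout array 4 lay among the wild-type arrays, and the difference of -0.80 ± 0.26 (SE) did not pass (adjusted p = 0.0677). Without knockout array 4 it was -1.06 (adjusted p = 0.00659). The second Cat probe set did pass, 1.48-fold lower at 5.55 ± 0.115 against 4.98 ± 0.253 (SD, n = 4 and 4, adjusted p = 0.0131). Both are below the median signal of all genes, and no detection calls were used.

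**Figure D3:**
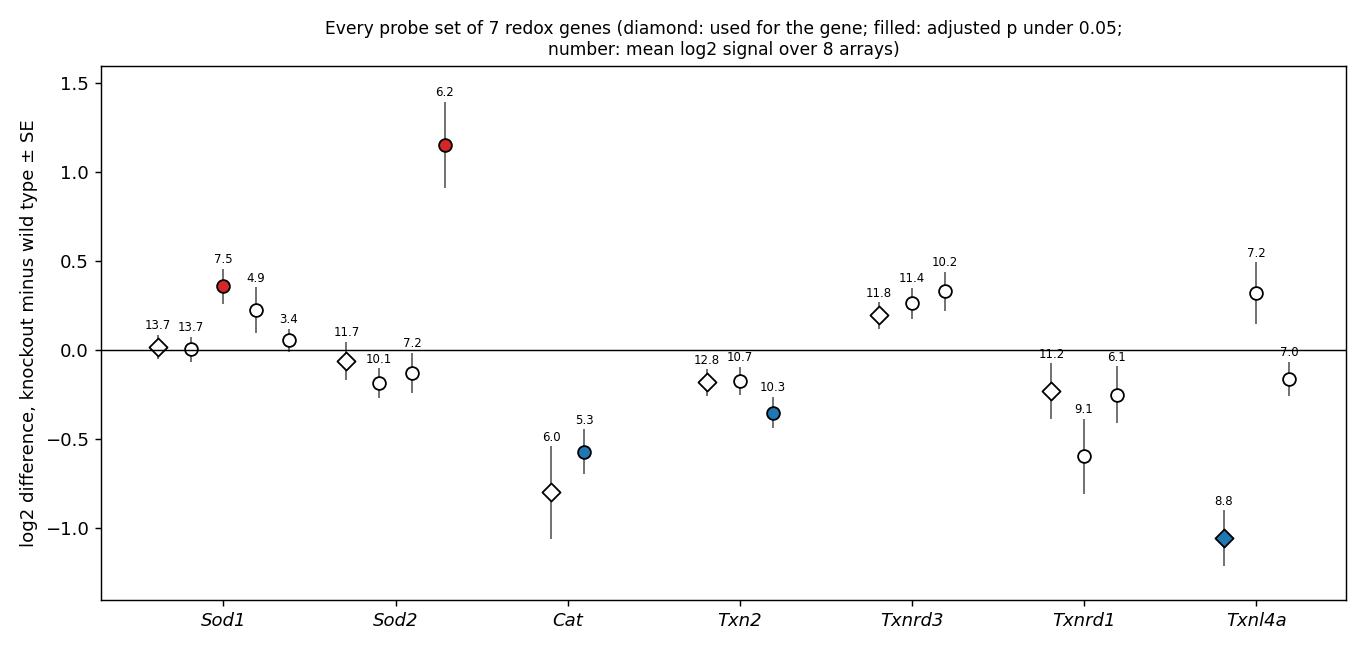
Log2 difference ± SE (knockout minus wild type, n = 4 and 4 arrays) for every probe set of 7 redox genes, with diamonds for the probe set that represents the gene, filled symbols for adjusted p under 0.05 (red higher, blue lower) and the mean log2 signal as a number. Sod2 has 1 probe set at 1.15 and 3 between -0.18 and -0.059, while all 3 of Txnrd3 lie above 0.

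Peroxiredoxins reduce peroxides with electrons from thioredoxin. Of 3 measured with a single symbol, Prdx3 fell. Prdx3, the mitochondrial form (chromosome 19, probe set 1416292_at), read 9.71, 10.09, 10.40 and 9.87 in wild-type oocytes and 9.44, 9.35, 9.23 and 9.22 in knockout. Every knockout array was lower, and the wild-type arrays spread more widely (SD 0.301) than the knockout arrays (SD 0.107). The difference was -0.71 ± 0.14 (SE, n = 4 and 4), or 1.63-fold lower (adjusted p = 0.0076). Prdx2, of the cytosol, read 13.60 ± 0.0879 and 13.61 ± 0.0596, a difference of 0.0095 (interval -0.15 to 0.17). A second Prdx2 probe set differed by -0.36 (adjusted p = 0.144). Prdx4, of the endoplasmic reticulum, differed by -0.36 (adjusted p = 0.124). Prdx1 shares its probe sets with the predicted gene Gm21399 and was therefore no member. The one with the highest mean read 13.74 ± 0.118 and 13.86 ± 0.101 (adjusted p = 0.402). Prdx5 and Prdx6 were not analysed here.

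The core of the thioredoxin system did not pass in any of its 6 genes. Txn1, thioredoxin of the cytosol, read 12.12, 11.85, 12.19 and 11.72 in wild-type oocytes and 12.38, 12.08, 12.27 and 12.34 in knockout. The groups overlapped, with a difference of 0.30 (adjusted p = 0.13). Txn2, the mitochondrial thioredoxin, had 12.82 to 13.04 in wild-type oocytes and 12.67 to 12.82 in knockout, with no overlap before rounding (difference -0.18, adjusted p = 0.148). Another of its 3 probe sets fell, 1.27-fold lower (adjusted p = 0.0253). Txnrd3, the reductase that also carries a glutaredoxin domain, was higher on all knockout arrays, 11.81 to 12.02 against 11.63 to 11.77, but missed the threshold (difference 0.20, adjusted p = 0.107). Its other probe sets differed by 0.26 (adjusted p = 0.0737) and 0.33 (adjusted p = 0.0699). It passed with quantile scaling (adjusted p = 0.0459), with cyclic loess scaling (adjusted p = 0.0206) and with the mean of its probe sets (adjusted p = 0.0357). Txnrd1, the cytosolic reductase, differed by -0.23 (adjusted p = 0.388) and passed without knockout array 2 (adjusted p = 0.0483). The remaining Txnrd1 probe sets differed by -0.59 (adjusted p = 0.0893) and -0.25 (adjusted p = 0.355). Txnrd2, its mitochondrial relative, differed by 0.17 (adjusted p = 0.187). Txnip, which binds and inhibits thioredoxin, read 13.65 ± 0.172 and 13.75 ± 0.0797 (SD, n = 4 and 4) and differed by 0.10 (interval -0.11 to 0.32).

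Glutaredoxins use glutathione to reduce mixed disulfides, and some carry iron-sulfur clusters. Of 4 genes 0 passed. Glrx read 13.59 to 13.68 in wild-type oocytes and 13.51 to 13.57 in knockout, groups that do not overlap, with a difference of -0.082 (adjusted p = 0.432). The second Glrx probe set, also without overlap, differed by -0.31 (adjusted p = 0.0592). Glrx5, the mitochondrial iron-sulfur factor, differed by -0.022 (interval -0.18 to 0.14), and Glrx3 by -0.058. Glrx2 varied widely within both groups, from 7.71 to 9.35 in wild-type oocytes and from 7.56 to 10.02 in knockout, and its interval ran from -0.72 to 1.80.

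Proteins with a thioredoxin-like domain gave 3 of the 5 falls. Of these 12 genes 3 fell and 0 rose, where 12.8% of all genes fell and 8.18% rose. No test compared counts over so few genes with those shares. Txndc2, a thioredoxin known from sperm, on chromosome 17 (probe set 1437266_at), read 11.83, 11.76, 11.79 and 11.90 in wild-type oocytes and 10.97, 11.14, 10.77 and 10.80 in knockout. The wild-type arrays lay close together (SD 0.0579), above all knockout arrays. The difference was -0.90 ± 0.0924 (SE, n = 4 and 4), or 1.87-fold lower, with the lowest adjusted p of the 62 genes (0.000214).

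Txnl4a and Txnl4b have a thioredoxin fold but are known for work in pre-mRNA splicing, Txnl4a as a part of the U5 particle. Txnl4a (probe set 1433698_a_at) read 9.61, 9.36, 8.90 and 9.45 in wild-type oocytes and 8.51, 8.32, 8.0 and 8.26 in knockout. The groups did not overlap, and the signal was 2.08-fold lower (log2 -1.05 ± 0.158, SE, n = 4 and 4, adjusted p = 0.00177). Its 2 other probe sets did not pass and differed in sign (0.32, adjusted p = 0.266, and -0.16, adjusted p = 0.324), and the call rests on the 1 probe set. Txnl4b (probe set 1455081_at) read 9.87, 9.90, 10.03 and 10.07 in wild-type oocytes and 9.68, 9.66, 9.70 and 9.69 in knockout. It was 1.22-fold lower (adjusted p = 0.0218), and this call ended without wild-type array 3 or 4 or knockout array 1, 2 or 4 (adjusted p = 0.0515 to 0.0603) and with quantile (0.0893) or cyclic loess scaling (0.111). The 9 other genes of this group, among them the endoplasmic reticulum oxidoreductase Txndc5 and the proteasome-bound Txnl1, had differences from -0.27 (Txndc11) to 0.24 (Txndc12).

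More cumulus and granulosa markers fell (8 of 17) than rose (0), and their median difference was -0.44. More oocyte markers also fell (6 of 14) than rose (1), but their median difference was smaller, -0.06. Whether either bears on the 5 falls or the 4 rises was not tested. For each of the 9 called genes the exact two-sided permutation p over 70 arrangements was 0.0286, the smallest that 4 against 4 arrays can give. Every gene whose groups do not overlap gets this value, so it only restates the separation. Glrx, Txn2 and Txnrd3 had it too and were not called. Of the 9 called genes, all but Txnl4b passed in each of the 8 fits without 1 array.

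Genes that supply or govern the redox systems were counted in 5 further lists, whose members are not among the 62 genes. Of 31 measured genes of Nrf2 regulation and known targets, 5 rose (16.1%) and 8 fell (25.8%), where 8.18% and 12.8% of all genes did (median -0.034). No test compared this or the lists below with all genes, and the lists were drawn up with earlier results known. Nfe2l2, which encodes Nrf2 itself, read 9.80, 10.21, 9.11 and 9.59 in wild-type oocytes and 9.08, 9.03, 8.75 and 8.98 in knockout. It fell 1.64-fold (adjusted p = 0.037), but the call held in 1 of the 8 fits that leave out an array (adjusted p up to 0.101). Keap1, which holds Nrf2 for degradation, differed by -0.034 (adjusted p = 0.88).

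Changes among Nrf2 targets went both ways. Cbr3, a carbonyl reductase, read 7.93, 7.01, 8.50 and 7.14 in wild-type oocytes and 9.83, 10.10, 10.56 and 10.44 in knockout, or 6.02-fold higher (adjusted p = 0.000532). Sqstm1, the autophagy adaptor p62, which binds Keap1, was 3.25-fold higher (8.53 ± 0.357 to 10.23 ± 0.331, SD, n = 4 and 4, adjusted p = 0.00049). Its second probe set did not pass (log2 -0.07). Abcc1, a pump that exports glutathione conjugates, fell from 11.03 ± 0.106 to 10.26 ± 0.232 (1.70-fold lower, adjusted p = 0.00201), in both of its probe sets. Slc7a11, described with cysteine supply, is also in this list and fell. The other calls in this list were rises of Bach2, Hmox1 and Cbr1, from 1.34-fold to 2.94-fold, and falls of Nfe2l1, Akr1b8, Abcc2, Abcc3 and Aldh3a1, from 1.34-fold to 3.74-fold. These 8 genes were named after their values were seen, and the call of Cbr1 held in 1 of 8 fits without an array. Nqo1, the best-known target of Nrf2, read 6.09 ± 0.188 and 6.32 ± 0.223 (SD, n = 4 and 4) and did not pass (adjusted p = 0.291). Nfe2l2, Keap1 and Nqo1 were likewise chosen with values in view.

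Cysteine supply limits glutathione synthesis. Of the called genes of cystine and cysteine uptake, the carriers Slc7a11 and Slc1a1 fell and the shared heavy chain Slc3a2 rose. Of 23 genes of cysteine supply and glutathione turnover, 1 rose (4.35%) and 3 fell (13%; median 0.029). Slc7a11, the cystine-carrying chain of the cystine-glutamate exchanger, read 10.77, 11.28, 10.93 and 11.02 in wild-type oocytes and 10.14, 10.44, 10.08 and 10.24 in knockout. It was 1.71-fold lower (adjusted p = 0.00213), while its other probe set differed by 0.099 (adjusted p = 0.642). Slc3a2, the heavy chain that this carrier shares with other amino acid transporters, rose 1.45-fold (12.51 ± 0.1 to 13.05 ± 0.118, adjusted p = 0.00236). Slc1a1, a glutamate carrier that also takes up cysteine, fell from 7.74 ± 0.545 to 6.16 ± 0.236 (3.0-fold lower, adjusted p = 0.00201), as it did in 1 of its 2 other probe sets. Mat2b, a regulator of methionine adenosyltransferase, also fell and was picked with its values in view. Without wild-type array 1 or 4 or knockout array 1, 2 genes of this list rose.

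NADPH feeds both reductase systems. Of 21 genes of its supply, 1 rose (4.76%) and 4 fell (19%; median -0.072). Rpe, of the pentose phosphate pathway, fell 1.25-fold (adjusted p = 0.0164), in 2 of its 3 probe sets. Nadk2, the mitochondrial NAD kinase, fell 1.35-fold (adjusted p = 0.019), but another probe set read 0.88 higher (adjusted p = 0.0509) and the call ended without wild-type array 4 (adjusted p = 0.0531). Mthfd2, of mitochondrial folate metabolism, rose 1.21-fold (adjusted p = 0.0429) and lost the call whichever array was left out (adjusted p up to 0.097). Taldo1 and Aldh1l1, named after their values were seen, completed the falls. The falls numbered 2 without wild-type array 1 or knockout array 3 and 1 without wild-type array 4, and G6pdx was not analysed here.

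Several of the enzymes above need selenocysteine, whose synthesis was covered by a list of 24 genes together with selenoproteins and methionine sulfoxide reductases. In it 3 rose (12.5%) and 5 fell (20.8%; median -0.056). Sepsecs, which forms selenocysteine on its transfer RNA, read 10.35, 10.24, 10.09 and 10.42 in wild-type oocytes and 9.75, 9.26, 9.48 and 9.58 in knockout. It was 1.69-fold lower (adjusted p = 0.00195), and its second probe set also fell. Sephs1, a relative of selenophosphate synthetase, fell 1.41-fold in 1 of 4 probe sets (adjusted p = 0.00868). Msrb3, a methionine sulfoxide reductase, rose 1.98-fold (10.84 ± 0.342 to 11.83 ± 0.0615, SD, n = 4 and 4, adjusted p = 0.0019), and Trnau1ap, a binding protein of the selenocysteine transfer RNA, rose 1.42-fold (adjusted p = 0.0138), each in both of its probe sets. Pstk, Secisbp2l and Msra also fell and Msrb2 also rose, genes named after their values were seen. With each of the 8 arrays left out in turn the falls numbered 2 to 3, with 2 without wild-type array 1 or 2, and with quantile scaling 3.

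Of 25 genes listed as sources of superoxide or hydrogen peroxide, 3 rose (12.0%) and 2 fell (8.0%, median 0.0087). The list also holds proteins linked to such enzymes that do not make these products themselves, such as Noxo1 and Shc1. Maob, the mitochondrial monoamine oxidase B, which releases hydrogen peroxide, read 10.35, 10.27, 10.19 and 9.96 in wild-type oocytes and 12.37, 12.58, 12.33 and 12.28 in knockout. The groups were far apart, 4.58-fold (log2 2.20 ± 0.104, SE, n = 4 and 4, adjusted p = 3.89e-06). Xdh, xanthine dehydrogenase, rose 2.28-fold (adjusted p = 0.000227), with 10.99 ± 0.242 in wild-type and 12.18 ± 0.126 in knockout oocytes, and the remaining rise was that of Shc1, also picked with its values in view. Acox3, a peroxisomal acyl-CoA oxidase, fell 1.38-fold (adjusted p = 0.00417) in 1 of 2 probe sets. Noxo1, an organiser of NADPH oxidase, fell 1.44-fold (adjusted p = 0.0308), a call that ended without wild-type array 1 or 4 or knockout array 2, 3 or 4 (adjusted p up to 0.0842) and left Acox3 as the 1 fall.

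**Figure D4:**
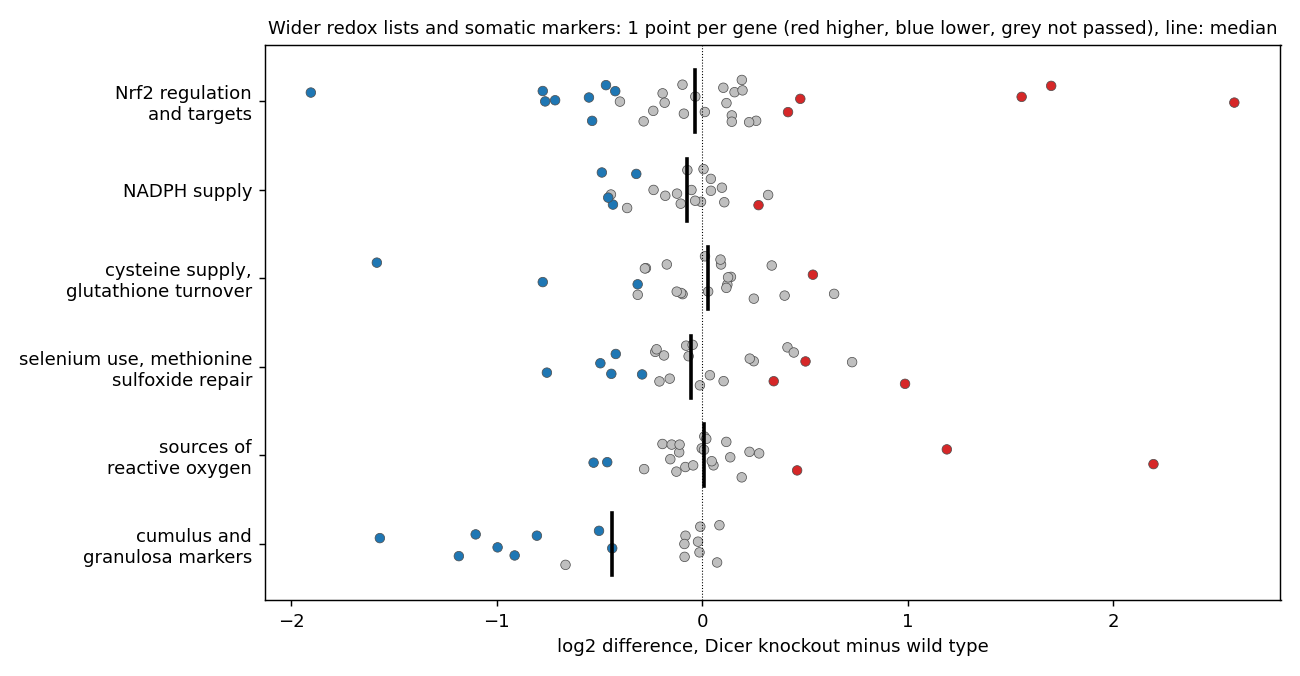
Log2 difference (knockout minus wild type, n = 4 and 4 arrays) of each measured gene in 5 redox lists outside the 62 genes and in the cumulus and granulosa markers, 1 point per gene, red for higher and blue for lower at adjusted p under 0.05, with the list median as a line. The medians of the 5 redox lists lie between -0.072 and 0.029, and that of the markers at -0.44.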

How the data were processed

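The deposited values are log2 signals of probe sets. RMA and Partek are named in the submitters' processing notes; RMA removes background, scales the arrays to one distribution and combines the probes of a set. Per the labels' protocols, RNA was isolated with the PicoPure kit and amplified linearly in 2 rounds. Such amplification favours 3′ ends of transcripts, and RMA compresses the differences of low signals. The platform annotation gave 1 symbol to 34945 of 45037 probe sets. A gene was represented by its single-symbol probe set with the highest mean over 8 arrays, with no filter on low values. Differences were tested with limma (version 3.58.1, R version 4.3.3; lmFit, eBayes, no covariates), with Benjamini-Hochberg adjustment over all 45037 probe sets and a threshold of 0.05. The code was tested on simulated data. Each array is a separate mouse by the labels, and no arrays were identical. The number of arrays (8) limits the precision. Promoter windows were searched with Python 3.11.15. The genes and lists were chosen with earlier results of these data known. Named genes were those past the threshold, the main enzyme of each step, the 3 with the highest means, and in each wider list the 2 lowest p-values in each direction. Alternatives were other scalings, variance models, array weights, probe set choices, a filter on low signals, a block by the first number of the title code, and leaving out each array.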

Additional observations from a re-analysis of the deposited data

Results flagged for a closer look

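Single arrays stood apart from the other 3 of their group in 5 of 140 sets of 4 values checked (62 genes and 8 list means, in each group), where chance gives about 1 in 20, or 7. Gclm read 11.04 on wild-type array 2, against 11.20 to 11.22 on the others, and 11.19 on knockout array 4, against 11.02 to 11.04. Gstk1 read 8.96 on wild-type array 3, against 8.42 to 8.51. Gstm6 read 8.06 on wild-type array 4, against 7.62 to 7.69. The mean over the Nrf2 list was 8.68 on knockout array 4, against 8.60 to 8.61 on the other knockout arrays. None of these 3 genes passed the threshold.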

How the results depend on the processing

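Of 560 refits over 30 named genes, 541 kept their side of the threshold. A change of sign in a gene that passed in neither fit was not counted. Gclc, for example, ranged from -0.047 to 0.17 over its refits and Prdx2 from -0.17 to 0.073. A further 8 refits lost the call (all Txnl4b, one of them with a variance trend at an adjusted p of 0.05). Another 10 gained it (Cat, Gpx4, Gss, Txn2, Txnrd1 and Txnrd3). In 1 refit, without probe sets marked as matching several transcripts, a called gene reversed. Another probe set then represents Txnl4a, which differed by 0.32 (adjusted p = 0.271). Higher redox genes numbered 2 in that setting, since fewer genes are tested, and 4 to 5 in the fits without 1 array; lower ones numbered 4 to 7 there. The labels number no replicates, but the first number of the title code is shared by 1 wild-type and 1 knockout array in 2 cases, with no stated meaning. As a random block (correlation -0.0778) it gave 4 higher and 5 lower redox genes and changed no call of the named genes. Falls in the selenium list numbered 3 with quantile scaling. Without 1 array, they numbered 2 to 3, rises in the NADPH list 0 and its falls 1 to 5, rises in the cysteine list 1 to 2, and falls among sources of reactive oxygen 1 to 2; the cause was not tested.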
